A study of Homo sapiens with 4 samples.

Results

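Flag-FLI1 peaks were examined around 10 genes of MHC class II antigen presentation: CIITA, CD74, HLA-DRA, HLA-DRB1, HLA-DPA1, HLA-DPB1, HLA-DQA1, HLA-DQB1, HLA-DMA and HLA-DMB. They were chosen by symbol from the 20046 protein-coding genes among the 62700 genes of GENCODE 44. Each peak was kept that lay within 3 kb of a transcription start site (TSS), in the gene body or within 50 kb of the gene. The windows of neighbouring genes merged into 5 intervals covering 839 kb, which held 13 of 30819 control peaks and 21 of 39654 IFN-γ peaks. The cells were HK1, an established nasopharyngeal carcinoma line, and those of both groups overexpressed Flag-tagged FLI1. The control group received PBS and the other group IFN-γ, each for 24 h, and chromatin was precipitated through the Flag tag. The signal is therefore that of the overexpressed protein, and there was 1 library per condition. An effect of IFN-γ could not be tested, because no replicate gives the spread between cultures. Peak lists hold no expression values, so neither the identity of the line nor the RNA of these genes was checked.

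MHC class II molecules present peptides from the endosomal pathway to CD4+ T cells. The α and β chains are encoded by the HLA-DR, HLA-DQ and HLA-DP genes. CD74, the invariant chain, guards the groove during transport, and HLA-DM, encoded by HLA-DMA and HLA-DMB, exchanges the remnant of CD74 for peptide. Their transcription depends on CIITA, a coactivator that does not bind DNA itself but joins a complex of RFX, NF-Y and CREB factors at the class II promoters. In non-immune cells, IFN-γ switches CIITA on. FLI1 is an ETS-family transcription factor that binds DNA at a GGAA core, and the FLI1 DNA-binding domain can also occupy tandem GGAA repeats, as it does in EWS-FLI1.

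The lists give fold enrichment over the local background at each summit, which is its highest point. Whole numbers of fragments piled up at each summit were recovered from these values for 100% of the peaks. Median pileups were 16 fragments (control) and 22 fragments (IFN-γ), and the IFN-γ library was 1.46 times as deep, judged from the lowest background in each list. The lowest pileup in a list was 6 and 7 fragments, respectively. A site with no peak in a list fell short of the calling cutoff, and weaker binding there remains possible.

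The reference sequences of the sites that carry the results are shown first. All are GRCh38, and the capitals mark the ETS core, GGAA or its reverse complement TTCC. The first is the 201 bases around the IFN-γ summit inside CIITA, which holds 9 cores. The next 2 lie upstream of CD74. They had peaks in the IFN-γ list alone and hold purine repeats.
CIITA, within the gene, chr16:10871520-10871720, plus strand: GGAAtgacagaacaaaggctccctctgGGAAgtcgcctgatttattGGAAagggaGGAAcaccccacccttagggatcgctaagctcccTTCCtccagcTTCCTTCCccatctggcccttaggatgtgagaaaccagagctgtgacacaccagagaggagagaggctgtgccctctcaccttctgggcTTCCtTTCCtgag
CD74, 26.2 kb upstream, chr5:150439055-150439255, plus strand: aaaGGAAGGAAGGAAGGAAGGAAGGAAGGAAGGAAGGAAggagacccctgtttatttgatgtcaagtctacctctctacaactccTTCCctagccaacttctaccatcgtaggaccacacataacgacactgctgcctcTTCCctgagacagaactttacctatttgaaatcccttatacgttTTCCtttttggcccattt
CD74, 24.2 kb upstream, chr5:150437006-150437206, plus strand: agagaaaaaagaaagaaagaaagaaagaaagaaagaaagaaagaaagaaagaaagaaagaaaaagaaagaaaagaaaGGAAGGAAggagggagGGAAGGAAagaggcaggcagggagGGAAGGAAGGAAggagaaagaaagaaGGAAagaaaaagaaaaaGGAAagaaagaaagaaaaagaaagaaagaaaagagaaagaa
For contrast, 2 promoters of neighbouring genes had the FLI1 octamer close to their summits in both libraries. The octamer was searched as CCGGAAGT or CAGGAAGT on both strands, and each contains the ETS core. It is in capitals in these 30-base stretches.
RPS14 promoter, chr5:150449768-150449797, plus strand: acttccgtgtcCCGGAAGTatacctctgag
TCOF1 promoter, chr5:150357638-150357667, plus strand: cgaaagaggagCCGGAAGTgtggcgcgcga
The promoters of HLA-DRB1 and CD74, from 250 bases before to 50 bases after the RefSeq start on GRCh38.p14, are given as examples of class II promoters without a peak. ETS cores are again in capitals.
HLA-DRB1 promoter, chr6:32589799-32590098, minus strand: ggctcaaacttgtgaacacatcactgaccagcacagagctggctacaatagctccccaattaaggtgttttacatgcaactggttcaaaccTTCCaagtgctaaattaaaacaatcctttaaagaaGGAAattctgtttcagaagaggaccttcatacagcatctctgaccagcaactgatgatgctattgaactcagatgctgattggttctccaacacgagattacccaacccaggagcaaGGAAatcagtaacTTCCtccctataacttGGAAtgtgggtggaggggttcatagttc
CD74 promoter, chr5:150412861-150413160, minus strand: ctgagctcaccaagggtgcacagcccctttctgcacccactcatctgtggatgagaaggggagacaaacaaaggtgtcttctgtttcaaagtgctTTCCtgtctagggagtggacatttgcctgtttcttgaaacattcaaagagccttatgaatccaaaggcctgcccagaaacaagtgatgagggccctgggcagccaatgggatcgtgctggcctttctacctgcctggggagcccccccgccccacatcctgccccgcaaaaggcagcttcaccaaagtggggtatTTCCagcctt

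Flag-FLI1 peaks were found at few of these promoters. In each library, 1 of the 10 genes carried a peak at any annotated TSS (3 kb either side), and that gene was HLA-DMA. Among all protein-coding genes the share was 61.9% (control) and 59.7% (IFN-γ). The HLA-DMA peaks lay at an outermost TSS of a longer transcript, about 15 kb upstream of the canonical start and beside BRD2. With the canonical TSS alone, the count was 0 of 10 in both libraries, against 57.3% and 54.1% of all protein-coding genes. Peaks in the gene body were found for 2 of 10 genes in each library, CIITA and HLA-DMA, where the shares of all protein-coding genes were 64.7% and 63.9%. The 10 genes are shorter than most, with a median length of 12.8 kb against 27.4 kb, and they have more TSSs, with a median of 7.5 against 5. Within 50 kb, 5 of 10 genes had a peak in the control library, namely CIITA, CD74, HLA-DRA, HLA-DMA and HLA-DMB. HLA-DRB1 joined them in the IFN-γ library, which made 6 of 10. Of all protein-coding genes, 85.8% (control) and 88.8% (IFN-γ) had such a peak.

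The remaining 4 genes, HLA-DPA1, HLA-DPB1, HLA-DQA1 and HLA-DQB1, encode the chains of HLA-DP and HLA-DQ. They had no peak within 50 kb in either library, as was the case for 9.66% of all protein-coding genes. These 4 genes are neighbours in pairs, so their windows overlap and they are not separate observations. Their nearest control summits lay 67.6 kb, 72.3 kb, 188 kb and 172 kb from the canonical TSS of HLA-DPA1, HLA-DPB1, HLA-DQA1 and HLA-DQB1. For the IFN-γ list these distances were 67.6 kb, 72.3 kb, 85.9 kb and 78.3 kb.

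**Figure D1:**
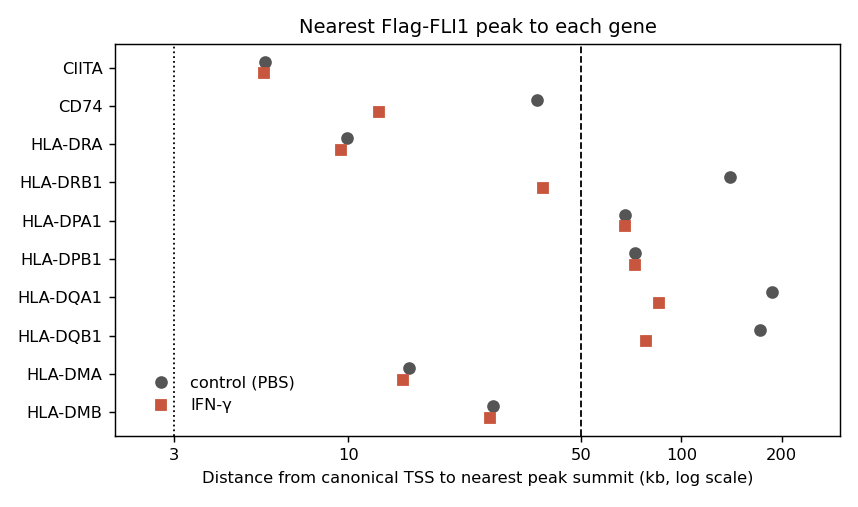
Distance from the canonical TSS of each gene to the nearest peak summit, in kb on a log axis, for the control library (circles) and the IFN-γ library (squares), with 1 library per condition. The dotted line marks 3 kb, which no point reaches, and the dashed line marks 50 kb, beyond which HLA-DPA1, HLA-DPB1, HLA-DQA1 and HLA-DQB1 lie in both libraries.

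CIITA (ENSG00000179583) occupies chr16:10866222-10943021 on the plus strand, with its canonical TSS at 10877202. It had the only peak inside a member gene that was in both lists and away from every TSS. The control peak, at chr16:10871227-10871778, held 10 fragments at its summit (background 1.34), which gave a fold enrichment of 4.70. The IFN-γ peak, at chr16:10871000-10872168, held 44 fragments (background 2.94), which gave a fold enrichment of 11.4. Their summits lay 5.61 and 5.58 kb upstream of the canonical TSS, between it and the outermost CIITA TSS. The site is in the gene body but outside the canonical transcript, and neither summit was in an annotated exon of CIITA. The control peak stood at 82.5% of its list by −log10 p, counted from the strongest, and the IFN-γ peak at 18.8% of its list. At control depth the IFN-γ pileup was equivalent to 30.2 fragments, a ratio of 3.02 to the control. The exact 95% binomial interval of the ratio was 1.50 to 6.73 and covers counting error only. Scaling by the local backgrounds of this site instead would give a lower ratio. The ratio stood at percentile 99.1 of the 23461 pairs of overlapping peaks over the whole genome.

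CIITA had 2 further peaks in the IFN-γ list that the control list lacked, 1 in the gene and 1 close to it. One of them lay in intron 16, at chr16:10918717-10918960, with 20 fragments and a fold enrichment of 3.33. The other, at chr16:10862498-10862968, had 24 fragments and a fold enrichment of 5.51. Its summit lay 14.6 kb upstream of the canonical TSS but 3.62 kb from the nearest CIITA TSS. Neither site had a FLI1 octamer within 100 bp of the summit. The IFN-γ list alone also had 2 peaks farther out, 48.0 kb upstream and in intron 10 of CLEC16A. The CLEC16A promoter, just downstream of CIITA, had a peak in both libraries, with 24 fragments in the control and 26 in the IFN-γ library. Its ratio at control depth was 0.744, with an interval of 0.411 to 1.35, which took in 1.

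**Figure D2:**
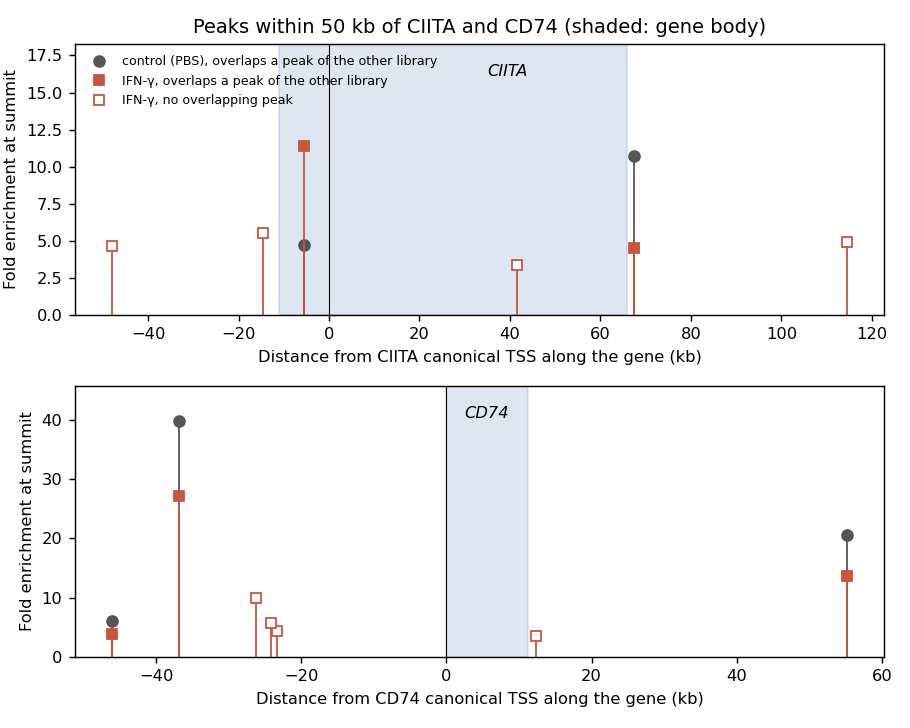
Fold enrichment at the summit of each peak within 50 kb of CIITA (upper panel) and CD74 (lower panel), against distance in kb from the canonical TSS in the direction of transcription. Circles are control and squares IFN-γ peaks, filled where a peak of the other library overlaps, and the shading is the gene body, which holds 1 control and 2 IFN-γ peaks in CIITA and none in CD74.

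CD74 (ENSG00000019582) occupies chr5:150401637-150412969 on the minus strand and had no peak in its body or promoter. The nearest control summit lay 36.9 kb upstream, at the promoter of RPS14, a ribosomal protein gene. The nearest IFN-γ summit lay 12.4 kb downstream of the TSS, beyond the end of the gene, in a weak peak of 9 fragments and a fold enrichment of 3.53. The window held 3 control peaks and 7 IFN-γ peaks, and 4 of the IFN-γ peaks had no control counterpart.

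The strongest of those 4, at chr5:150438906-150439385, lay 26.2 kb upstream of CD74. It had 30 fragments (background 2.13), a fold enrichment of 9.91 and a −log10 p of 24.6. Its sequence, shown above, holds a run of 9 GGAA units, which lies more than 50 bp from the summit. At 24.2 kb upstream, a peak with 27 fragments and a fold enrichment of 5.72 lay on a purine repeat whose longest GGAA run was 3 units. Another peak, with 16 fragments and a fold enrichment of 4.40, lay 23.4 kb upstream. In all windows, 1 of 21 IFN-γ summits and 0 of 13 control summits had a run of at least 4 GGAA units within 100 bp. In the whole IFN-γ list, 10.8% of summits had such a run, and in the control list 6.94% did.

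The RPS14 promoter peak was the strongest in any of the windows. The control peak held 90 fragments, 39.8-fold over background, and the IFN-γ peak held 170 fragments, 27.1-fold over background. The control peak was within the top 1.59% of its list. At control depth the ratio was 1.30, and its interval of 0.999 to 1.69 took in 1. The promoter of TCOF1, which encodes the nucleolar protein treacle, lies on the other side of CD74. It had 47 and 66 fragments, a ratio of 0.964 and an interval of 0.654 to 1.43. A weaker pair 46.1 kb upstream of CD74 had 13 and 11 fragments, with a ratio of 0.581 and an interval of 0.236 to 1.41.

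HLA-DRA (ENSG00000204287), at chr6:32439878-32445046 on the plus strand, encodes the α chain of HLA-DR. It had no peak in its body or promoter, and its nearest peaks lay downstream. The control peak, at chr6:32449736-32450007, had 9 fragments at 4.07-fold enrichment, with the summit 9.94 kb from the canonical TSS. The IFN-γ peak, at chr6:32449148-32449679, had 17 fragments at 4.99-fold enrichment, with the summit 9.53 kb from the TSS. These 2 peaks did not overlap. A peak in intron 7 of BTNL2, about 46 kb upstream of HLA-DRA, was in both lists with 20 and 28 fragments. Its ratio at control depth was 0.962, with an interval of 0.523 to 1.80. The control list held a further peak between BTNL2 and HLA-DRA, with 13 fragments and a fold enrichment of 4.65, that had no IFN-γ counterpart.

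HLA-DRB1 (ENSG00000196126), at chr6:32577902-32589848 on the minus strand, encodes a β chain of HLA-DR. Its single peak was in the IFN-γ list, at chr6:32551396-32551672, 38.3 kb downstream of the TSS. It had 11 fragments and a fold enrichment of 4.73. The nearest control summit lay 140 kb away.

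HLA-DMA (ENSG00000204257) spans chr6:32948613-32969094 on the minus strand, and its outer end overlaps the start of BRD2, which encodes a bromodomain protein and runs in the other direction. The peaks within 3 kb of an HLA-DMA TSS lay around this outer end, in HLA-DMA, in BRD2 or across the stretch they share. At the outermost HLA-DMA TSS, the control peak at chr6:32968183-32969014 had 25 fragments and a fold enrichment of 9.45. The IFN-γ peak there, at chr6:32968161-32968657, had 24 fragments and a fold enrichment of 6.52. The ratio at control depth was 0.659, with an interval of 0.361 to 1.20. A peak of the IFN-γ list alone, at chr6:32967167-32967813, had 25 fragments and a fold enrichment of 4.12. The control list had 3 further peaks and the IFN-γ list 2 inside BRD2. The wide pair there had 20 and 47 fragments and a ratio of 1.61, with an interval of 0.938 to 2.88, but its summits lay apart within the peak. The other pair had 22 and 21 fragments and a ratio of 0.656, with an interval of 0.343 to 1.25. HLA-DMB (ENSG00000242574), at chr6:32934629-32941028, had no peak of its own, and its nearest summits were those of the same cluster, at 27.3 kb in the control and 26.6 kb in the IFN-γ library. On its other side, about 46.6 kb from its TSS, a pair at the promoter of a non-coding RNA gene (ENSG00000289047) had 10 and 24 fragments, a ratio of 1.65 and an interval of 0.760 to 3.86.

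Over all windows, 11 of the 13 control peaks (84.6%) overlapped an IFN-γ peak, against 77.5% of all control peaks. Among the 21 IFN-γ peaks, 10 (47.6%) had a control peak under them, against 61.0% in the full list. The remaining 11 IFN-γ peaks and 2 control peaks had no counterpart. The IFN-γ library was deeper, and its list was longer over the whole genome as well. In the control library 8 of the 13 peaks lay at the promoter of some gene, and in the IFN-γ library 9 of the 21 did. The overlapping peaks made 10 pairs, and the CIITA pair was the only one of them whose interval left out 1. Of all pairs, 19.3% had such an interval, 11.9% with the higher pileup in the IFN-γ library and 7.39% with the lower. The median ratio of the 10 pairs was 0.963, against 1.01 over all pairs, 0.886 over pairs at promoters and 1.24 over pairs away from them. The CIITA pair was away from promoters.

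**Figure D3:**
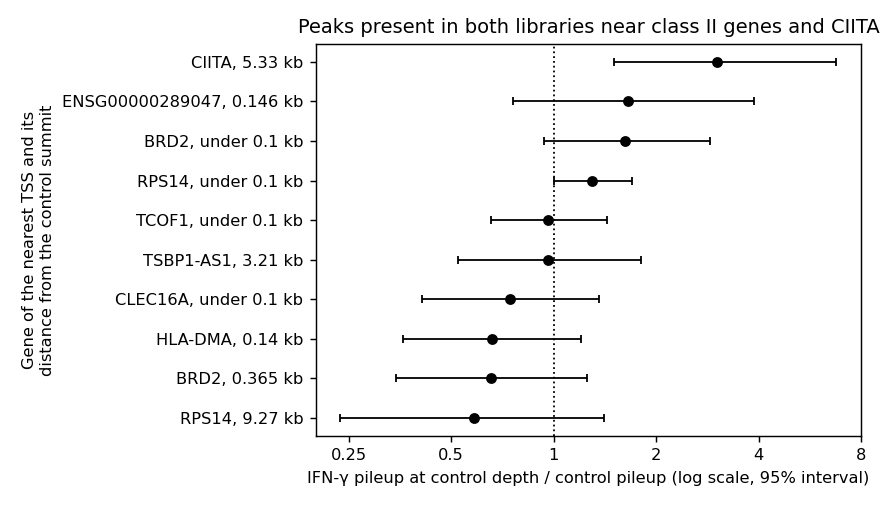
Ratio of the IFN-γ summit pileup, scaled to the depth of the control library, to the control pileup for the 10 pairs of overlapping peaks, on a log axis with exact 95% binomial intervals that cover counting error only. Each pair carries the gene of the nearest TSS and the distance in kb, and the CIITA pair, at 3.02, is the only one whose interval lies clear of the dotted line at 1.

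In the class II region, from HLA-DRA to HLA-DPB1, peaks were not sparse as a whole. The 0.650 Mb held 10 control and 13 IFN-γ peaks, or 15.4 and 20.0 peaks per Mb. Chromosome 6 had 10.5 and 14.5 peaks per Mb, and the autosomes and X together 10.2 and 13.1. The peaks were unevenly placed. None of the 13 class II genes of the region had a peak within 3 kb of its canonical TSS in either library. Of the 7 other protein-coding genes between them, 6 (control) and 4 (IFN-γ) had one. These were PSMB8, PSMB9, TAP1 and BRD2 in both, with TAP2 and the overlapping gene model ENSG00000250264 in the control library alone. TAP1 shared a peak with PSMB9, and TAP2 with ENSG00000250264, so these genes are not separate observations. TAP1 and TAP2 form the peptide transporter of class I presentation, and PSMB8 and PSMB9 are subunits of the immunoproteasome. Within class II genes that were not members, HLA-DQA2 had an IFN-γ peak in intron 1, with a fold enrichment of 5.52 and no control counterpart. The strongest IFN-γ peak of the region was in exon 12 of TAP2, with 42 fragments and a fold enrichment of 11.8, and the control list had no peak there.

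HLA-DRB1, HLA-DQA1 and HLA-DQB1 lay in a stretch of 388 kb without a control peak, and 4.59% of the gaps between control peaks were at least as long. In the IFN-γ library the gap around them was 193 kb, and 8.52% of gaps were at least as long. HLA-DPA1 and HLA-DPB1 lay in a gap of 176 kb in both libraries, which 12.2% of control gaps and 9.63% of IFN-γ gaps reached. The median gap was 30.2 kb and 27.2 kb. Exact copies were looked for on chromosome 6 of the reference. Stretches of 100 bases that recur exactly on chromosome 6 made up at most 0.847% of any member promoter there and at most 0.934% of any gap. Copies with a mismatch and copies outside chromosome 6 were not counted, so how uniquely reads map there was not tested. Differences between the class II alleles of HK1 and the reference were not measured, and their part in the missing peaks was not tested.

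**Figure D4:**
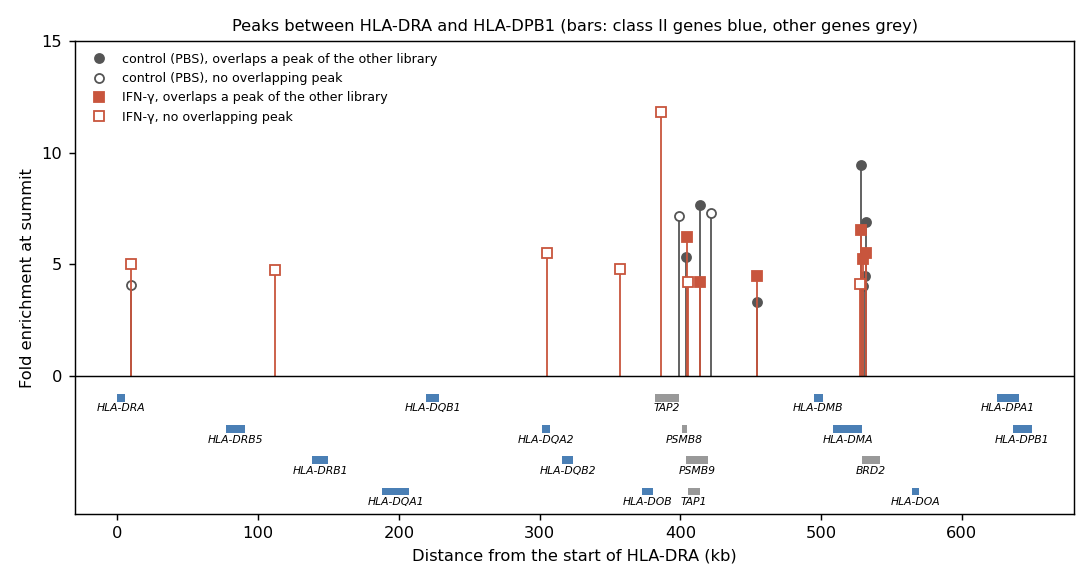
Fold enrichment at the summit of each peak in the class II region against distance in kb from the start of HLA-DRA, with protein-coding genes drawn to scale below (class II genes blue, others grey, 2 gene models without a symbol left out). Circles are control and squares IFN-γ peaks, filled where the other library has an overlapping peak, with most peaks around TAP2 to PSMB9 and at the outer end of HLA-DMA and BRD2, and single peaks downstream of HLA-DRA, downstream of HLA-DRB1 and in HLA-DQA2.

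The ETS core occurred near most summits, in the windows as elsewhere. Within 100 bp it was found at 12 of 13 control summits and 21 of 21 IFN-γ summits, against 96.1% and 97.9% of all summits. The longer octamer was found at 2 of 13 and 2 of 21 summits, those of RPS14 and TCOF1, against 12.8% and 13.5% of all summits. An ISRE core (GAAANNGAA, the site of IRF factors) was found at 0 of 13 control and 3 of 21 IFN-γ summits, against 8.42% and 13.4% of all. These 3 were the sites 24.2 kb upstream and 12.4 kb downstream of the CD74 TSS and the IFN-γ peak 9.53 kb downstream of the HLA-DRA TSS. At the first and the last of them its letters overlap a purine repeat. A GAS element (TTCNNNGAA, an IFN-γ-activated sequence) was found at 1 summit of each list, against 5.33% and 6.38% of all. In the control list this was the summit inside CIITA. The sequence around the IFN-γ summit there, shown above, begins within that element and so does not count it. In the IFN-γ list it was the peak at chr6:32967167-32967813 in HLA-DMA. An AP-1 site (TGANTCA) was found at 0 of 13 and 2 of 21 summits, against 17.7% and 22.1%. The CCAAT box was found at 2 of 13 and 4 of 21, against 17.4% and 18.9%.

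Of the 10 genes, 8 had a promoter sequence in the RefSeq table, with 9 sequences in all, since HLA-DPA1 has 2 starts. All 9 held an ETS core, as did 95.5% of the 35116 promoters in the table. HLA-DRB1 had 5 cores and CD74 had 2. The octamer was in 0 of 9, against 7.02% of all promoters. The CCAAT box, the site of NF-Y in class II promoters, was in 7 of 9, against 34.6%. The ISRE core was in 4 of 9, against 8.11%, and the GAS element in 1 of 9, against 7.66%. Of the AP-1 site and of a run of at least 4 GGAA units there were 1 and 0, against 7.71% and 0.0199% of all promoters. These matches describe the letters in the window and do not show that a factor binds.

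The median GC content of the 9 RefSeq promoters was 46.3%, against 58.7% over all promoters in the table. Around the canonical start, GC content ran from 42.3% at HLA-DPB1 to 63.7% at HLA-DPA1 for the 8 genes. Over the whole genome, canonical promoter peaks were less frequent at promoters of low GC content. Of the 991 protein-coding genes at 40 to 45% GC, 12.8% had one in the control and 16.2% in the IFN-γ library, and of the 1195 genes at 45 to 50%, 22.4% and 25.2% did. Of the 9160 genes at 65% GC or more, 74.3% and 67.4% did. HLA-DRB1 and HLA-DPB1 fell in the first of these classes, HLA-DQA1, HLA-DQB1 and HLA-DMB in the next, and CD74 and HLA-DMA between 50 and 55%, where the shares were 38.9% and 40.1%. At its canonical start HLA-DPA1 fell between 60 and 65%, where 65.4% and 61.8% of 3354 genes had one, and it had none. Its RefSeq promoters had 47.7% and 66.7% GC. Over the whole GC range of the 8 genes, which took in 8722 protein-coding genes, the shares were 47.2% and 46.7%. HLA-DPA1 alone set the upper end of that range, and the next highest was CD74 at 54.3%. The part of GC content in the missing promoter peaks was not tested.

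Genes related to the pathway were counted from 5 lists grouped by role. Of 35 genes, 29 had a promoter peak in the control list and 26 had one with IFN-γ. Of all protein-coding genes, 61.9% (control) and 59.7% (IFN-γ) had one. The lists were chosen with earlier results of these data known. They were not matched to the class II genes in GC content or counted at canonical TSSs alone. None of the 5 other class II genes (HLA-DRB5, HLA-DQA2, HLA-DQB2, HLA-DOA and HLA-DOB) had one in either library. Of the 7 genes for the factors that CIITA joins on DNA, 7 had one in the control and 6 in the IFN-γ library. RFXANK, a subunit of the RFX complex, had 51 control and 63 IFN-γ fragments, with fold enrichments of 19.4 and 18.4. NFYC, a subunit of NF-Y, had 28 and 31 fragments, with fold enrichments of 13.9 and 10.2. RFXAP, another RFX subunit, had a peak in the control library alone, with 12 fragments and a fold enrichment of 4.85.

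Among 9 coactivators and chromatin regulators of the pathway, 9 had a promoter peak in the control list and 8 had one with IFN-γ. The acetyltransferase gene EP300 had 74 and 98 fragments and fold enrichments of 24.9 and 25.8. USF1, which encodes a transcription factor that acts at CIITA, had 42 and 73 fragments and fold enrichments of 18.9 and 21.3. KAT2A had a peak in the control library alone, with a fold enrichment of 5.35. Of 10 genes of antigen processing, 10 and 9 had a peak. The highest fold enrichments in the IFN-γ library were those of the protease gene CTSB, at 23.2 with 88 fragments, and the tetraspanin gene CD63, at 9.69 with 43 fragments. In the control library CTSB and CD63 had 36 and 43 fragments. The CTSB peaks lay 5.38 kb from its canonical TSS in both libraries, so they counted through another TSS. CTSV had a peak in the control library alone, with a fold enrichment of 5.23. Of 4 genes of class II turnover and CD74 cleavage, 3 had a peak in each library. SPPL2A, the protease that cuts the CD74 remnant, had 80 and 92 fragments, and CD83, which protects class II molecules from ubiquitination, had 64 and 44. MARCHF1, a ubiquitin ligase of class II molecules, had none in either. The genes with a peak in the control list alone had low pileups there, of 12 or 13 fragments. Whether binding at them was lost with IFN-γ was not tested.

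**Figure D5:**
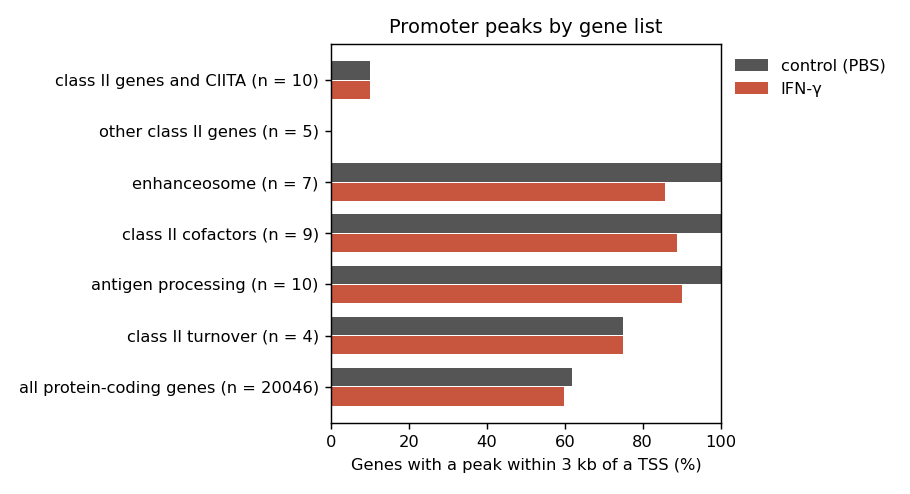
Percent of genes with a promoter peak (3 kb either side of any TSS) in the control and IFN-γ libraries, for class II genes with CIITA, the 5 pathway lists and all protein-coding genes, with the number of genes in brackets. The class II genes stand at 1 of 10 and 0 of 5, and the lists of their regulators and of antigen processing stand above the shares of all protein-coding genes, 61.9% and 59.7%.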

How the data were processed

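Flag-FLI1 ChIP-seq of 2 libraries was used, and the inputs were not analysed here. According to the methods and the submitters' processing notes, the authors used Cutadapt 1.18 for trimming, Bowtie2 2.3.4.1 for alignment to GRCh38, Picard for duplicate removal and MACS2 2.1.2 for peak calling. Use of the input in calling is not given in the sources used here. For each peak, the authors deposited the fold enrichment at the summit (a ratio to local background), the −log10 of the p-value and q-value, and a score that was not used. The lowest −log10 q was 1.30 in the control and 1.32 in the IFN-γ list.

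MACS gives fold enrichment as pileup plus 1 over background plus 1, and p from a Poisson distribution. Pileup and background were solved from both, with a largest relative error of 6.21e-06. The step was tested on simulated data. Overlapping peaks that were each other's best match formed pairs. IFN-γ pileups were divided by the ratio of the lowest backgrounds, 1.46, before ratios were taken. Intervals are exact Clopper-Pearson at 95% and cover counting error only. Positions are 1-based. Genes and TSSs came from GENCODE 44, and promoter sequences from the RefSeq table for GRCh38.p14. Both strands were searched for motifs, up to 100 bp from each summit. The sequence of 1 summit is not reported here. GC content was taken from the genome over the 250 bases before and 50 after the canonical start.

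All 10 genes were named, as were nearest-TSS genes with a promoter peak in the windows, list genes with no promoter peak or a peak in 1 library only, the 2 genes of each list with the highest IFN-γ fold enrichment, peaks in member genes or promoters, the 5 strongest others of each list and pairs whose interval left out 1. Some weaker peaks and genes of the class II region were named after their values were seen. The genes and lists were chosen with earlier results of these data known. Alternatives covered q-value cutoffs, window sizes, TSS choice, overlap, scaling and motif windows. Software was pandas 2.3.3, scipy 1.17.1, pysam 0.24.0, numpy 2.4.6 and matplotlib 3.10.9 under Python 3.11.15.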

Additional observations from a re-analysis of the deposited data

How the results depend on the processing

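No paired analysis was possible because the control and IFN-γ groups had a single library each. Of 104 alternative values, 74 stayed within 1.5 times the reported count or, for the CIITA ratio, inside its interval, and 30 moved. With canonical TSSs alone, 0 members had a promoter peak in either library. At a q-value under 1e-05, 1 member had a gene body peak in the control library, HLA-DMA, and the windows held 8 control peaks, so the CIITA control peak was under that cutoff. Within 10 kb, 3 members had a control peak, and the windows held 7 control and 10 IFN-γ peaks. Within 100 kb, 10 members had an IFN-γ peak, and the windows held 23 control and 35 IFN-γ peaks. Where an overlap of 50% of each peak was required, 7 control peaks of the windows and 2 peaks of each library in the class II region were shared. With summits within 100 bp, 3 peaks of each library in the region were. Scaling by promoter pairs left 3 pairs whose interval left out 1, and no scaling left 4. The CIITA ratio ran from 2.88 to 4.40 over the scalings tried, and its interval left out 1 under each. These scalings divided IFN-γ pileups by 1 to 1.53. Scaling by the local background, which was 1.34 (control) and 2.94 (IFN-γ) at this site, was not tried. It would divide the IFN-γ pileup by more than these scalings did, and the CIITA interval could then take in 1. Under promoter scaling the added pairs were RPS14, at 1.46, and the wide BRD2 pair, at 1.82. Within 50 bp of the summit, GAS was found at 0 control and 0 IFN-γ summits, CCAAT at 1 and 2, and GGAA runs at 0 IFN-γ summits. Within 250 bp, GAS was found at 2 and 3, the ISRE core at 2 and 6, CCAAT at 5 and 7, and GGAA runs at 3 IFN-γ summits. In longer promoters, from 500 bases before to 100 after the canonical start, 2 members had a GAS element. Causes were not tested. A summit at the median rests on 16 or 22 fragments, so ratios of single weak peaks are imprecise, and sites under the calling cutoff have no value.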
